A study of Cordyceps militaris with 6 samples.

Results

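The genes described here encode ribosomal proteins of Cordyceps militaris, an ascomycete fungus that is cultivated for its fruiting bodies. They are the genes whose product text names a ribosomal protein or a ribosomal subunit. Texts that also contain the word kinase, methyltransferase, acetyltransferase or biogenesis were left out. The rule found 171 of the 10385 genes in the expression table, 15 with a mitochondrial label in the product text and 156 without one. A few product texts that match it are not those of a plain structural protein. Examples are a Tim44-related membrane transporter (CCM_06528 and CCM_00730), a carboxylic ester hydrolase (CCM_06727) and the subunit assembly and export protein LOC1 (CCM_03194).

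A fungal cell builds separate sets of ribosomes. The cytosolic ribosome has a 60S and a 40S subunit and translates nuclear messages, while the mitochondrial ribosome translates the few messages of the mitochondrial genome, with nearly all of its proteins encoded in the nucleus and imported. Genes for cytosolic ribosomal proteins are usually short, strongly expressed and regulated together with growth, and in yeast many of them carry an intron.

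The series followed the YCC strain through subculture, with 1 library of mycelium from each of passages 1 to 6, and its design text names the divergence between passages during degeneration as its subject. Cultures were shaken in a liquid medium without light for 72 h, no group carried a genetic change or a drug, and messenger RNA was selected by its poly(A) tail. The passages form a single lineage with no replicate library, so passage and library cannot be told apart. The test used below sets the 5 later libraries against passage 1 and assumes that the lone passage 1 library varies like the others. Its p-values measure only the spread between these libraries.

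Total counts ran from 9740171 in passage 1 to 13813999 in passage 2. Passage 1 stood apart in scaling, with a TMM factor of 0.868 against 0.997 to 1.06 in the later libraries. It also stood apart by gene length, since short genes had lower counts there relative to long ones. Over the 8589 tested genes that are not ribosomal proteins, the log2 difference between later passages and passage 1 had a Spearman correlation of -0.39 with coding length, a description across genes and not across replicates. Ribosomal protein genes had a median coding length of 0.648 kb against 1.39 kb for all genes tested, so the counts of calls are given with and without this length trend, and the named genes that lose their call without it are listed further on. Markers of conidia and hydrophobins, a list of 16 genes, had a summed level of 1640 FPKM (fragments per kilobase, scaled to library size) in passage 1 and 767 to 1848 FPKM later, with Hydrophobin 2 (CCM_03537) at 0 in every library. Of the 13 that could be tested, 1 was called higher (7.69%) and 4 lower (30.8%) in the later passages. The shares of all genes tested were 9.58% and 14.4%. The median log2 difference of these markers was -0.80, beside 0.05 for all genes tested. The part of other cells in the results below was not tested.

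Ribosomal protein genes took a smaller share of the passage 1 library than of any later one. They held 2.43% of gene counts in passage 1, then 3.11%, 3.08%, 3.26%, 3.08% and 3.18% in passages 2 to 6. The 95% Wilson interval of the passage 1 share, which covers counting error only, was 2.42% to 2.44%. By summed FPKM the shares were 5.02%, 5.99%, 5.97%, 6.38%, 5.91% and 6.05% in the same order. Passage 1 was lowest on both scales and passage 4 highest. In bulk RNA, fewer cells of a kind and less RNA per cell cannot be told apart.

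**Figure D1:**
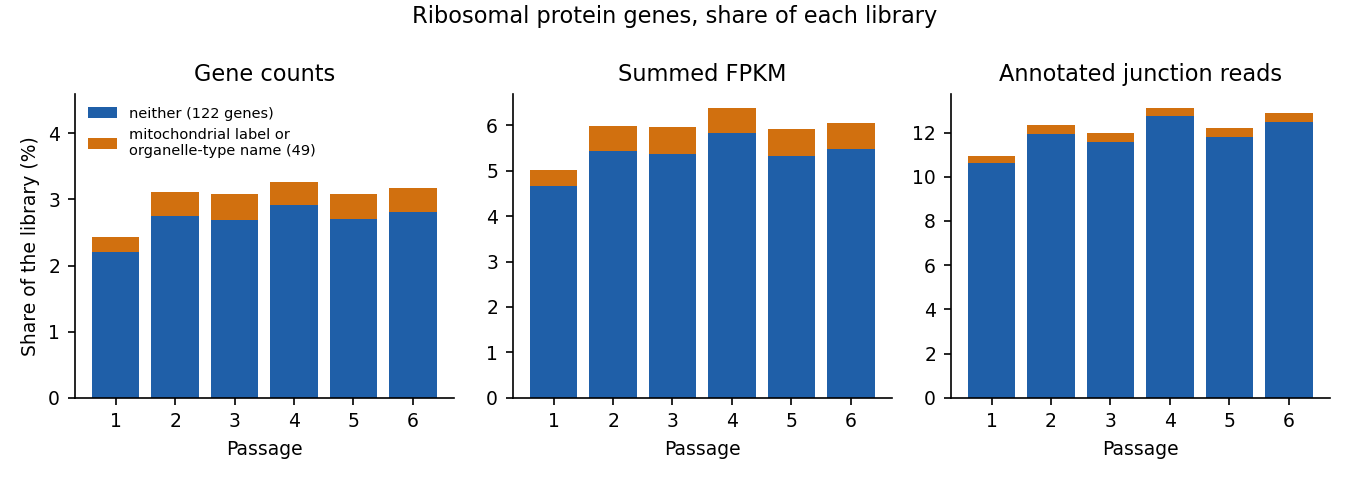
Share of each library (%, vertical axis) taken by ribosomal protein genes in passages 1 to 6, by gene counts, by summed FPKM and by reads over annotated splice junctions. Blue bars are the 122 genes without and orange bars the 49 genes with a mitochondrial label or organelle-type name, and each panel has its own scale from 0. The passage 1 bar is the lowest in each panel, at 2.43%, 5.02% and 10.9%.

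Tested gene by gene, more ribosomal proteins were higher than lower in the later passages. Of 169 members that passed the expression filter, 57 were called higher and 7 lower in passages 2 to 6 than in passage 1 (edgeR's quasi-likelihood test, Benjamini-Hochberg adjusted p under 0.05 over 8758 genes). Of all 8758 genes tested, 9.58% were called higher and 14.4% lower, beside 33.7% and 4.14% of the members. The median log2 difference, later minus passage 1, was 0.47 for the members and 0.05 for all genes tested. The untested members were L40 (CCM_03982), whose product is known as a fusion with ubiquitin, at 0.15 to 0.86 FPKM, and L38e (CCM_07939) at 0.27 to 3.30 FPKM. These counts move with single libraries, since leaving out passage 3 or passage 5 left 30 members higher and 2 lower, and leaving out passage 4 left 37 higher and 2 lower. On the FPKM scale, which lacks the TMM factor, limma on log2(FPKM + 1) called 89 members higher and 1 lower, beside 20.5% and 8.55% of all genes.

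Passage 1 lay outside the range of the later libraries for most members. In TMM-scaled counts it lay below all 5 later libraries for 105 of 169 members (62.1%), above all of them for 28 (16.6%) and within their range for 36. Over all 8758 genes, 35.3% had passage 1 below and 33.3% had it above the later range. Among passages 2 to 6 the members had a median range of 0.33 on the log2 scale, against 0.56 for all genes tested. Their median level was also higher, at 114 FPKM against 25.8 FPKM. The ranges of genes of like level were not compared, so the smaller range is not shown to be particular to the members.

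Proteins of the large subunit were called higher more often than lower. Of 79 tested genes with a large-subunit name, 25 were called higher (31.6%) and 4 lower (5.06%), beside 9.58% and 14.4% of all genes tested, with a median log2 difference of 0.37. With the length trend removed, 3 were called higher and 10 lower, 3.797% and 12.7% beside 5.87% and 10.7% of all genes, and the median was 0.01. The 79 include 3 genes with an organelle-type name, 54S L25 (CCM_06385), a bacterial-type L30 (CCM_00208) and L49/IMG2 (CCM_00999), none of them called. L12 (CCM_03950, scaffold NW_006271971.1, 1086431 to 1087141 of assembly CmilitarisCM01_v01, plus strand) encodes a protein at the base of the stalk, the arm that recruits translation factors. Its level was 255 FPKM in passage 1 and 547, 892, 816, 746 and 814 FPKM in passages 2 to 6. Passage 1 was the lowest and passage 2 stood between it and the other 4. The log2 difference was 1.33 ± 0.26 (SE, edgeR adjusted p = 0.0148), and 1.27 in annotated junction reads (edgeR adjusted p = 0.00870).

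The acidic stalk proteins did not move as a set. P1 (CCM_09613, scaffold NW_006271978.1, 109827 to 111329), which binds the stalk with P2, had 101 FPKM in passage 1 and 223, 284, 309, 252 and 275 FPKM in passages 2 to 6. The passage 1 value was below every later one, with a log2 difference of 1.17 ± 0.19 (SE, edgeR adjusted p = 0.00822). A weakly expressed P2 gene (CCM_07272) had 5.74 FPKM in passage 1 and 15.1, 18.8, 24.8, 17.8 and 21.4 FPKM later, again with no overlap, and a log2 difference of 1.52 ± 0.34 (SE, edgeR adjusted p = 0.0214). The more strongly expressed P2 gene (CCM_04243) went the other way in value, from 291 FPKM in passage 1 to 269, 223, 225, 216 and 248 FPKM, and did not pass the test (log2 difference -0.55 ± 0.17, edgeR adjusted p = 0.0534). P0, the anchor of the stalk, had 497 FPKM in passage 1 and 516.5 to 570.2 FPKM later in its main gene (CCM_06393), whose log2 difference was -0.14 ± 0.14 in TMM-scaled counts and 0.11 in log2(FPKM + 1), neither past the test. The second P0 gene (CCM_01677) had 93.1, 88.2, 64.6, 77.1, 62.7 and 62.3 FPKM, with passage 1 the highest, and a log2 difference of -0.63 ± 0.22 (edgeR adjusted p = 0.0764).

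**Figure D2:**
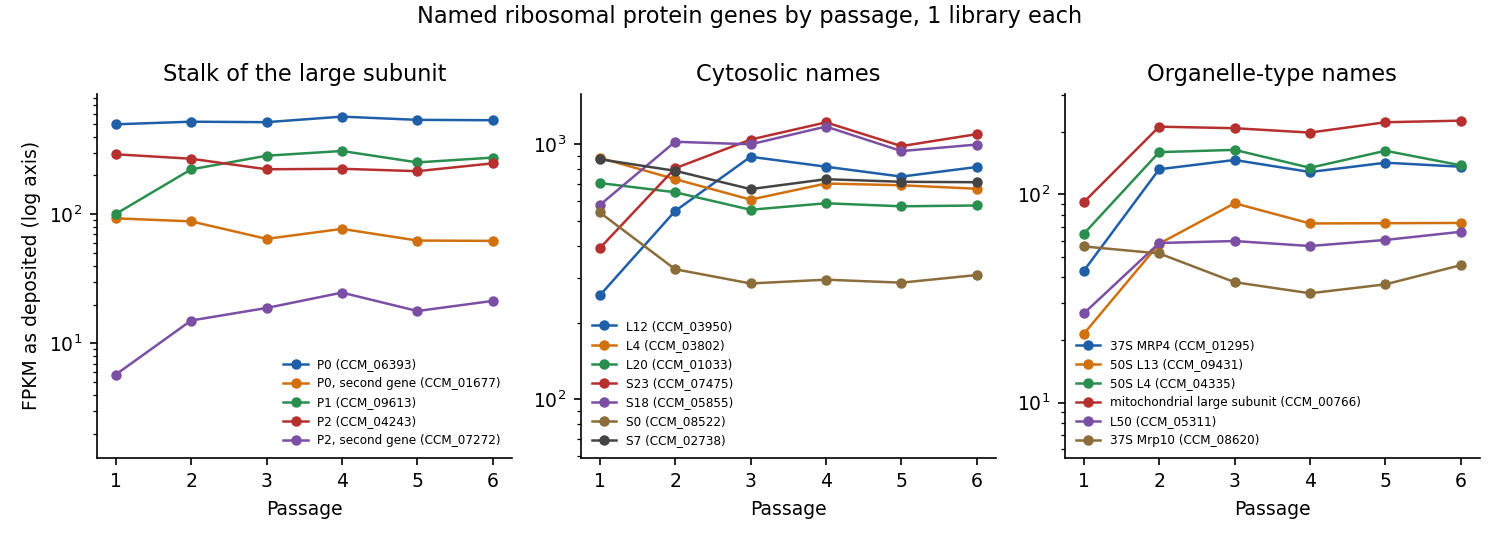
Level of named ribosomal protein genes (FPKM as deposited, log axis) in passages 1 to 6, with 1 point for each library, for the stalk, for cytosolic names and for organelle-type names. L12, P1, S23 and 37S MRP4 had their lowest value in passage 1, while S0, L4, S7 and L20 had their highest value there.

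Other large-subunit genes called higher included L44 (CCM_01084) and L39 (CCM_02668). L44 had 21.8 FPKM in passage 1 and 48.9, 70.9, 80.6, 57.7 and 64.4 FPKM later, a log2 difference of 1.32 ± 0.27 (SE, edgeR adjusted p = 0.0163). L39, a protein of only 0.156 kb coding length that lines the exit tunnel, had 3, 21, 23, 38, 29 and 32 counts in the 6 libraries and a log2 difference of 2.59 ± 0.62 (SE, edgeR adjusted p = 0.0256). The L39 call was lost without passage 5 (edgeR adjusted p = 0.0529). Its junction reads were far more numerous, with 6758 in passage 1 and 15970 to 21277 later, and gave a smaller log2 difference of 0.81 (edgeR adjusted p = 0.0137).

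The 4 large-subunit genes called lower were L4, L20, L19 and L37ae. L4 (CCM_03802, scaffold NW_006271971.1, 612645 to 613939), whose loop reaches into the exit tunnel, had 884 FPKM in passage 1 and 729, 606, 701, 689.8 and 668 FPKM later. Passage 1 was the highest of the 6, and the log2 difference was -0.62 ± 0.16 (SE, edgeR adjusted p = 0.0339). L20 (CCM_01033) had 704 FPKM in passage 1 and 553 to 648 FPKM later, with a log2 difference of -0.51 ± 0.15 (SE, edgeR adjusted p = 0.0499). L19 (CCM_05555) had 20.3 FPKM in passage 1 and 14.9 to 16.8 FPKM later, and L37ae (CCM_01889) had 37.2 FPKM and 16.5 to 26.7 FPKM. Their gene models of 3.16 kb and 2.27 kb are long for these proteins, and their log2 differences were -0.58 and -1.01 (edgeR adjusted p = 0.0253 and 0.0246). Without any one of passages 3, 4 and 5, L4 missed the test (edgeR adjusted p = 0.0569 to 0.0692), as did L20 (0.0933 to 0.0961) and L19 (0.0529 to 0.0542). L20 also missed it without passage 6 (edgeR adjusted p = 0.0547).

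Of 51 tested genes with a small-subunit name, 16 were called higher (31.4%) and 3 lower (5.88%), beside 9.58% and 14.4% of all genes tested, with a median log2 difference of 0.33. After removal of the length trend, 1 was called higher and 9 lower, 1.96% and 17.6% beside 5.87% and 10.7% of all genes, and the median was 0.04. The 51 include 8 genes with 37S names, which hold 3 of the 16 higher calls (CCM_00007, CCM_00731 and CCM_03873) and the 1 that stays without the length trend. S23 (CCM_07475, scaffold NW_006271974.1, 584384 to 584892, minus strand), a protein of the decoding centre, had 391 FPKM in passage 1 and 804, 1042, 1217, 982 and 1094 FPKM later. All later libraries were at least 800 FPKM, with no overlap, and the log2 difference was 1.15 ± 0.23 (SE, edgeR adjusted p = 0.0146). S17 (CCM_01213) had 28.7 FPKM in passage 1 and 71.3, 75.01, 78.6, 78.4 and 71.4 FPKM later, a log2 difference of 1.14 ± 0.17 (SE, edgeR adjusted p = 0.00674). S21 (CCM_00150) had 18.7 FPKM in passage 1 and 39.5 to 58.2 FPKM later, a log2 difference of 1.12 ± 0.27 (SE, edgeR adjusted p = 0.0261), which was lost without passage 5 (0.0547). S18 (CCM_05855), one of the small-subunit genes with the highest level, had 577 FPKM in passage 1 and 939 to 1172 FPKM later. Its log2 difference of 0.58 ± 0.16 passed the test (SE, edgeR adjusted p = 0.0403) and missed it without any one of passages 2, 3, 4 and 5 (0.0633 to 0.0725).

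S0 (CCM_08522, scaffold NW_006271975.1, 958196 to 959232, minus strand) had the largest fall of any member called. It belongs to the protein family of bacterial S2. Its level was 540.1 FPKM in passage 1 and 323, 285, 294, 287 and 307 FPKM in passages 2 to 6, so that every later library was well below passage 1. It fell by 1.10 ± 0.14 on the log2 scale (SE, edgeR adjusted p = 0.00459), by 1.37 with the length trend removed (edgeR adjusted p = 0.00570) and by 0.96 in junction reads (edgeR adjusted p = 0.00694). S13 (CCM_02236) had 518 FPKM in passage 1 and 380.3 to 458 FPKM later, and S7 (CCM_02738) had 872 FPKM and 666 to 786 FPKM. Both were highest in passage 1, with log2 differences of -0.58 and -0.52 (edgeR adjusted p = 0.0431 and 0.0494). Each missed the test without any one of passages 3, 4 and 5 (edgeR adjusted p = 0.0729 to 0.0812 for S13 and 0.0882 to 0.0949 for S7), and S7 missed it without passage 6 (0.0530).

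Apart from S18, the members with the highest levels in either subunit did not pass the test. L19A (TCONS_00002157), a gene outside the reference annotation, had 1091 FPKM in passage 1 and 1486 to 1642 FPKM later, with a log2 difference of 0.27 ± 0.15 (SE). L10a (CCM_02671) had 1219 FPKM in passage 1 and 1387 to 1528 FPKM later, with 0.03 ± 0.15. S15 (CCM_02284) had 949 FPKM in passage 1 and 912 to 1096 FPKM later, with -0.15 ± 0.17. In these 3 genes the sign depended on the scale: L19A and L10a turned negative with the length trend removed and S15 turned positive in log2(FPKM + 1).

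Members with a mitochondrial label were compared with the rest. Of the 15, 4 were called higher (26.7%) and none lower by edgeR, beside 9.58% and 14.4% of all genes tested. Their median log2 difference was 0.58, and 9 had an unadjusted edgeR p under 0.05, as did 3514 of all 8758 genes. Of the 154 others tested, 53 were called higher (34.4%) and 7 lower (4.55%), with a median of 0.40. The label does not collect all genes of this kind, since names such as 37S, 54S, 50S, 30S, Mrp, Rsm and YmL are those of mitochondrial or bacterial-type ribosomes. With such names added, a grouping chosen after the values were seen, 49 genes stood beside 122 without one. The 122 are called cytosolic names below for short. They are defined only by the lack of such a name and include the Tim44-related CCM_06528 and CCM_00730 and the ester hydrolase CCM_06727. Of the 49, 19 were called higher (38.8%) and none lower, with a median of 0.63 and 31 at an unadjusted edgeR p under 0.05. Of the other 120 tested, 38 were called higher (31.7%) and 7 lower (5.83%), with a median of 0.32. The 49 genes held 0.222% of counts in passage 1 and 0.350% to 0.391% later, while the 122 held 2.21% and 2.69% to 2.91%.

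Of the 16 genes with a 50S or 30S name and no mitochondrial label, passage 1 was below all 5 later libraries in 16, beside 35.3% of all genes. By edgeR 10 of them were called higher (62.5%, beside 9.58% of all genes) and none lower, and the median log2 difference was 0.75. An unadjusted edgeR p under 0.05 was found for 12 of them and for 3514 of all 8758 genes. Once the length trend was removed, 4 of the 16 were called higher and none lower by edgeR (25%, beside 5.87% of all genes), with a median of 0.46, and of the 5 genes named next only L13 kept its call. L13 of the 50S subunit (CCM_09431) had 21.4 FPKM in passage 1 and 58.0, 90.8, 72.6, 72.8 and 73.0 FPKM later, a log2 difference of 1.53 ± 0.25 (SE, edgeR adjusted p = 0.00822). L14 of the 50S subunit (CCM_08112) had 8.30 FPKM in passage 1 and 19.3 to 27.4 FPKM later, a log2 difference of 1.24 (edgeR adjusted p = 0.0228). L4 of the 50S subunit (CCM_04335) had 64.7 FPKM in passage 1 and 134 to 164 FPKM later, a log2 difference of 0.99 (edgeR adjusted p = 0.0149). The most strongly expressed of the 16, L27 (CCM_02524) and L24 (CCM_07487), had 103 and 93.7 FPKM in passage 1 and 193 to 224 and 171 to 206 FPKM later. Both were called higher, with log2 differences of 0.79 and 0.77 (edgeR adjusted p = 0.0140 and 0.0207).

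MRP4 of the 37S subunit (CCM_01295, scaffold NW_006271969.1, 4171934 to 4173428, plus strand) is known from Saccharomyces cerevisiae as a mitochondrial protein of the same S2 family as S0. It had 43.0 FPKM in passage 1 and 132, 146, 128, 142 and 136 FPKM in passages 2 to 6, so that the later libraries lay close together and well above passage 1. The log2 difference was 1.43 ± 0.16 (SE, edgeR adjusted p = 0.00345), opposite in sign to that of S0. In junction reads the MRP4 difference was 0.63 and missed the test (edgeR adjusted p = 0.0799). Rsm25 of the 37S subunit (CCM_09111) had 47.7 FPKM in passage 1 and 93.3 to 103 FPKM later, a log2 difference of 0.81 (edgeR adjusted p = 0.0104).

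Among genes with the label, a mitochondrial large subunit gene (CCM_00766) had 91.8 FPKM in passage 1 and 212, 208, 198, 222 and 226 FPKM later, a log2 difference of 0.97 ± 0.16 (SE, edgeR adjusted p = 0.00878). L50 (CCM_05311) had 26.8 FPKM in passage 1 and 56.6 to 66.2 FPKM later, a log2 difference of 0.93 ± 0.17 (SE, edgeR adjusted p = 0.0109). In both genes passage 1 was far below the closely grouped later libraries. The gene related to YmL11 (CCM_00755) had 105 FPKM in passage 1 and 178 to 201 FPKM later, and S35 (CCM_06569) had 65.7 FPKM and 108 to 119 FPKM. Both were called higher (log2 differences 0.59 and 0.55, edgeR adjusted p = 0.0316 for each) and missed the test without any one of passages 3, 4 and 5 (0.0558 to 0.0688).

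The length of the genes matters for how these counts read. In 10 length bins set by the deciles of the members' coding lengths, the medians of members and other genes were often close, while members were called higher at a larger share than other genes in all 10 bins. The largest gaps were 47.1% against 14.3% (0.759 to 0.885 kb) and 37.5% against 9.39% (1.06 to 1.43 kb), and the smallest were 23.5% against 18.1% (0.648 to 0.759 kb) and 11.8% against 4.34% in the longest bin. In the shortest bin, 0.156 to 0.333 kb, 18 members had a median log2 difference of 0.73 and 118 other genes 0.71. In the longest, 1.43 to 3.71 kb, 17 members had 0.04 and 3780 other genes -0.16. Between 0.396 and 0.471 kb the members were below the other genes, at 0.20 against 0.45, and between 1.06 and 1.43 kb they were above, at 0.48 against 0.08. Over all 169 members the median difference from other genes of the same bin was 0.02, with 87 members above their bin and 82 below. The bins match length only, and the median level of the members was the higher one in every bin. Between 0.396 and 0.471 kb it was 423 FPKM against 18.8 FPKM. Shares of calls were not compared at like level, so the larger shares are not shown to be particular to the members.

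**Figure D3:**
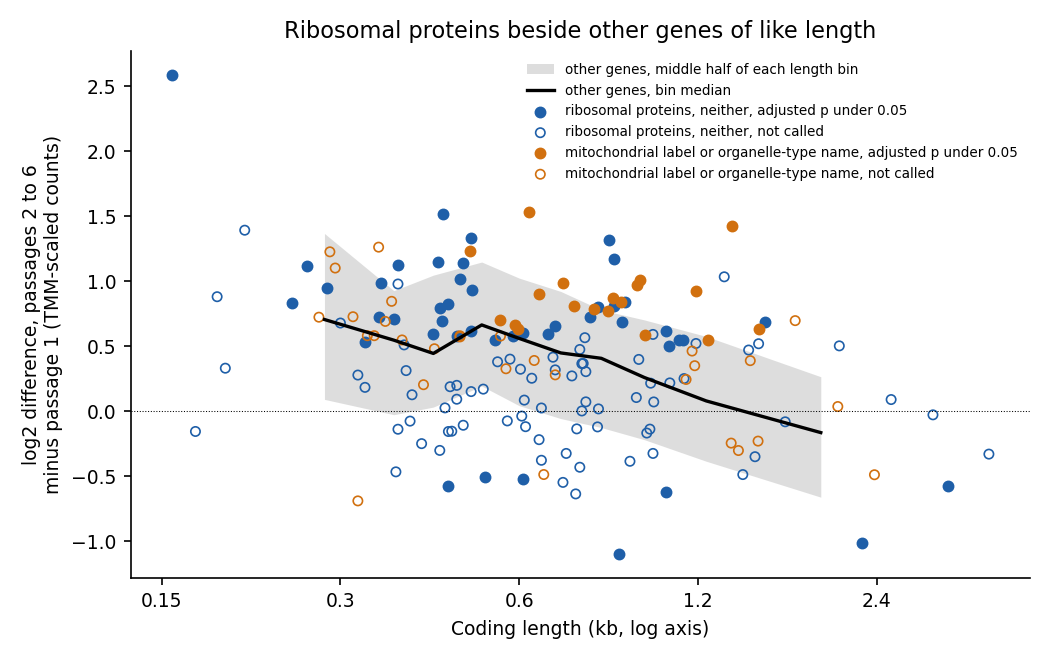
Difference between passages 2 to 6 and passage 1 (log2, TMM-scaled counts) against coding length (kb, log axis) for 169 ribosomal protein genes, filled where the edgeR adjusted p was under 0.05. The black line and grey band are the median and interquartile range of other genes in 10 length bins, falling from 0.71 in the shortest to -0.16 in the longest bin. The points scatter around the line, and the orange points, genes with a mitochondrial label or organelle-type name, lie above it in 35 of 49 cases.

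With the length trend of the other genes taken out of each library, the members' calls lay near the shares of all genes. Of the 169 members, 11 were called higher (6.51%) and 20 lower (11.8%), beside 5.87% and 10.7% of all genes tested, and the median log2 difference was 0.05, beside 0.04 for all genes. All of these 11 had been called higher without the correction, and 5 of the 20 had been called lower. The 49 genes with a mitochondrial label or organelle-type name had 8 higher and 1 lower, with a median of 0.26. The 120 others had 3 higher and 19 lower, with a median of -0.02. In a comparison with genes of like length, 35 of the 49 lay above their bin (median 0.20), as did 52 of the 120 (median -0.11). For the 15 genes with the mitochondrial label alone, 10 lay above their bin, with a median of 0.04.

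The members called lower after this correction were mainly highly expressed ones with a cytosolic name. Besides S0, they included S13 with a log2 difference of -1.12 (edgeR adjusted p = 0.0105), L20 with -1.01 (0.0115), S7 with -0.98 (0.0126), the strongly expressed P2 gene CCM_04243 with -0.94 (0.0143) and the second P0 gene CCM_01677 with -0.999 (0.0300). L30 (CCM_04673) had -1.06 (edgeR adjusted p = 0.0300). The 1 lower gene with an organelle-type name was Mrp10 of the 37S subunit (CCM_08620), at 56.3, 52.1, 37.9, 33.5, 37.02 and 45.8 FPKM, with -1.32 (edgeR adjusted p = 0.0182). Passage 1 was the highest of its 6 libraries. Those called higher included MRP4 with 1.39 (edgeR adjusted p = 0.00703), L13 of the 50S subunit with 1.07 (0.0263), L44 with 1.02 (0.0447), P1 with 0.88 (0.0258), L50 with 0.83 (0.0179) and CCM_00766 with 0.74 (0.0220).

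Many of the genes described above missed the test once the length trend was removed. Among those with a cytosolic name, L12 had a log2 difference of 0.81 (edgeR adjusted p = 0.0610), the weak P2 gene CCM_07272 0.97 (0.0866), L39 1.85 (0.104), S23 0.59 (0.102), S17 0.61 (0.0628) and S21 0.44 (0.265). S18 was at 0.05 (edgeR adjusted p = 0.862), and of those called lower, L19 (CCM_05555) was at -0.15 (0.454) and L37ae at -0.73 (0.0720). Among organelle-type names, L14, L4, L27 and L24 of the 50S subunit had 0.71, 0.59, 0.46 and 0.47 (edgeR adjusted p = 0.0928, 0.0768, 0.0656 and 0.0815), Rsm25 had 0.44 (0.0805), the YmL11-related gene 0.38 (0.120) and S35 0.48 (0.0520). All of these kept the sign of their difference.

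Reads over annotated splice junctions gave a second measure of the same genes, chosen after the values were seen. The deposited junction tables list junctions with at least 5 reads, and 139 members had an annotated one, 84.2% of the members in the reference annotation against 58.8% of all reference genes. Members had a median of 1 such junction and all genes with junctions a median of 2. By this measure ribosomal proteins took 10.9% of reads in passage 1 and 12.4%, 11.99%, 13.1%, 12.2% and 12.9% in passages 2 to 6. Passage 1 was again the lowest and passage 4 the highest, and the TMM factor of passage 1 was 1.01 here. Calls made by both measures are counted below in members only, and both measures come from the same 6 libraries. Such joint counts are therefore not shown to be particular to the members.

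Of 134 members tested on junction reads, 45 were called higher and 7 lower, beside 13.3% and 15.3% of all 5335 genes, with a median log2 difference of 0.35. The calls from gene counts and from junction reads had the same direction in 31 members and opposite directions in none. With the length trend removed from junction reads, 8 members were called higher and 23 lower, beside 8.4% and 10.9% of all genes, and the median was -0.02. Genes with a cytosolic name were again the lower group, with 4 higher and 22 lower and a median of -0.19. Those with a mitochondrial label or organelle-type name had 4 higher and 1 lower and a median of 0.20. Across both measures with length removed, 3 members were called higher and 16 lower in each.

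Junction reads exceeded gene counts for many members. In 89 members the junction reads summed over 6 libraries outnumbered the counts, and in 18 there were over 10 junction reads per count. The ratio was 660.2 for L39, 249 for S29 (CCM_01376) and 97.3 for L29 (CCM_05811), the last of these chosen after their values were seen. S29 had 25, 58, 34, 28, 24 and 30 counts beside 5496, 10404, 7068, 10033, 7507 and 9027 junction reads. The members with the most junction reads were S18, S3Ae (CCM_03947) and L33 (CCM_06982), the latter pair with 20559 to 44461 and 18206 to 37844 reads a library. Across 171 members the ratio had a Spearman correlation of -0.73 with coding length, a description in which the points share the same libraries. Among members with a cytosolic name, the 9 of up to 0.3 kb had a median level of 43.0 FPKM and the 68 over 0.6 kb one of 137 FPKM. By reads per junction the order was the reverse, with a median of 4606 in the shortest class and 1568 in the longest. Counts and FPKM of the shortest members, L39 and S29 among them, may be too low, and their levels are not comparable with those of longer genes.

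**Figure D4:**
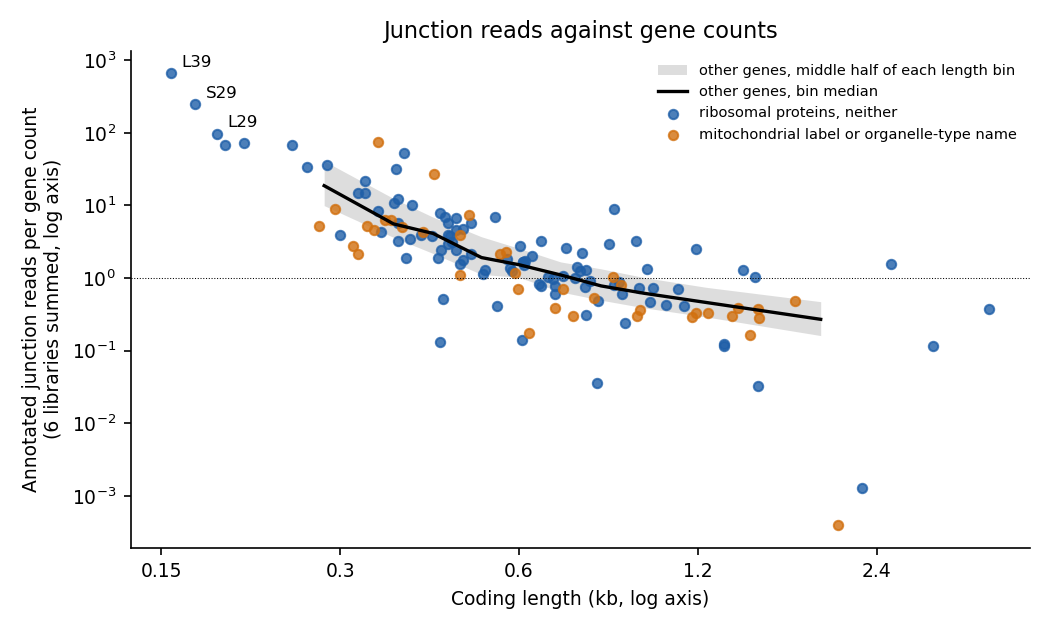
Annotated junction reads per gene count (6 libraries summed, log axis) against coding length (kb, log axis) for ribosomal protein genes with listed junction reads, with the median (black) and interquartile range (grey) of other genes in 10 length bins. The ratio is highest for the shortest genes, reaching 660.2 in L39, and the median of other genes falls from 18.7 in the shortest bin to 0.27 in the longest.

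Several protein numbers are carried by more than 1 gene, and the gene with the higher level in FPKM was often the one with the smaller log2 difference. Among members with a cytosolic name, 22 numbers had 2 to 4 genes each, 55 genes in all. The names do not tell which of these are copies of 1 protein. Nor do they tell which are mitochondrial proteins that lack an organelle-type name. The genes with the highest level in each number had a median level of 322 FPKM and a median log2 difference of 0.14, with 5 called higher and 2 lower. The 33 genes with lower levels had a median of 54.3 FPKM and 0.52, with 13 called higher and 1 lower. Of all tested members 33.7% were called higher and 4.14% lower, and of all genes tested 9.58% and 14.4%. In 22 of the 33 the log2 difference was above that of the strongest gene of the number, and in 24 with the length trend removed. This grouping was made after the values were seen and was not tested. Its ranks use FPKM, which may be too low for the shortest genes. For L37, CCM_05512 ranked above CCM_03177 at 74.0 FPKM against 72.6 FPKM, but had 667 reads per junction against 4606. The 49 genes with a mitochondrial label or organelle-type name had medians of 66.0 FPKM and 0.63. Whether the 33 genes include further proteins of that kind was not tested.

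Some of these pairs went in opposite directions. For S7, the strong gene CCM_02738 was called lower, while CCM_04612 had 30.2 FPKM in passage 1 and 50.8 to 67.8 FPKM later and was called higher, with a log2 difference of 0.73 (edgeR adjusted p = 0.0438). For L4, the strong gene CCM_03802 was called lower, while CCM_09411 had 43.5 FPKM in passage 1 and 72.2 to 74.7 FPKM later and was called higher, with 0.50 (edgeR adjusted p = 0.0412). The weaker gene was thus the lowest in passage 1 in both pairs and the stronger gene the highest. With the length trend removed, CCM_04612 and CCM_09411 kept positive differences of 0.39 and 0.35 and missed the test (edgeR adjusted p = 0.228 and 0.115). Where copies are near identical, the split of reads between them is uncertain.

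Taken passage by passage against passage 1, with no test since each has 1 library, the shift in TMM-scaled counts was present in passage 2 and stayed of like size. At least 2-fold higher (TMM-scaled) were 13, 23, 18, 26 and 23 members in passages 2 to 6, beside 10.3%, 13.2%, 11%, 12.5% and 12.5% of all genes. At least 2-fold lower were 1, 1, 3, 1 and 2 members, beside 11.1%, 13.4%, 10%, 13.5% and 11.1% of all genes. As shares of 169 members, the higher counts ran from 7.69% in passage 2 to 15.4% in passage 5 and so lay near the share in all genes, while the lower counts lay far under it. The median log2 ratio of the members was 0.45, 0.45, 0.40, 0.39 and 0.49 in passages 2 to 6. With the length trend removed it was 0.03, 0.01, 0.09, 0.05 and -0.01, beside 0.03, 0.01, 0.02, 0.01 and 0.02 for all genes tested. The shift was thus largely absent on that scale. These 5 comparisons share the passage 1 library. The authors' deposited tables, which list genes at least 2-fold apart, hold 30, 49, 42, 33 and 41 members for passages 2 to 6, all listed as higher except 1 in passage 6. That is 17.5%, 28.7%, 24.6%, 19.3% and 24.0% of the members, and the authors' deposited tables list 18.2%, 24.1%, 19.3%, 21.9% and 21.1% of all genes. Most genes of every kind in the authors' deposited tables are also listed as higher, at 66.2%, 69.2%, 75.3%, 63.2% and 73.2% in the same order.

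No member had a slope over passages 1 to 6 that passed the test (edgeR, 0% of all genes called). At an unadjusted p under 0.05 there were 8 members and 1129 genes by edgeR, and DESeq2 called no member either, with 14 at an unadjusted p under 0.05. The members' slopes ran from -0.18 to 0.34 on the log2 scale per passage, with a median of 0.06. S23 and L12 had slopes of 0.20 and 0.23, and S0 one of -0.17 (edgeR adjusted p = 0.380, 0.381 and 0.386), in each of which passage 1 holds the extreme level.

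Other parts of the translation machinery, in lists taken from the product text, are set beside the 9.58% of all genes called higher and the 14.4% called lower. Of 12 translation elongation factors, 1 was called higher (8.33%) and 3 lower (25%), with a median log2 difference of -0.28. Elongation factor 3, a fungal factor that clears the exit site, had 811 FPKM in passage 1 and 309 to 447 FPKM later in its stronger gene (CCM_05664), which fell by 1.30 (edgeR adjusted p = 0.00647). Of 31 translation initiation factors, 5 were called higher (16.1%) and 9 lower (29.03%), with a median of -0.30. The cap-binding factor eIF4E (CCM_07605) had 63.8 FPKM in passage 1 and 126 to 169.6 FPKM later and was higher by 0.95 (edgeR adjusted p = 0.0137). Its scaffold partner eIF4G (CCM_07414) had 293 FPKM and then 126 to 171 FPKM and fell by 1.13 (edgeR adjusted p = 0.00845).

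Of 39 genes of ribosome biogenesis and rRNA processing, 1 was called higher (2.56%) and 7 lower (17.9%, near the share in all genes), with a median of -0.25. Of 8 tested RNA polymerase I genes none was higher and 4 were lower by edgeR (50%), with a median of -0.59. RRN3 (CCM_06612), which brings RNA polymerase I to the rRNA genes, had 49.9 FPKM in passage 1 and 22.7 to 31.4 FPKM later and fell by 1.12 (edgeR adjusted p = 0.00938). Of 46 aminoacyl-tRNA synthetases, which load tRNAs with their amino acids, 6 were called higher and 6 lower (13.04% each, near the shares in all genes), with a median of 0.14. These genes are longer than the members, with median coding lengths of 1.31 to 2.39 kb. With the length trend removed, the calls were 2 higher and 2 lower for elongation factors, 0 and 9 for initiation factors, 0 and 2 for ribosome biogenesis, 0 and 1 for RNA polymerase I and 4 and 3 for the synthetases. The lower calls were 16.7% of elongation factors, 29.03% of initiation factors and 5.13% of ribosome biogenesis genes. They were 12.5% of RNA polymerase I genes and 6.52% of the synthetases, beside 10.7% of all genes. The higher calls were 16.7% of elongation factors and 8.70% of the synthetases, beside 5.87% of all genes. On this scale eIF4E and eIF4G had log2 differences of 0.60 and -0.61 and missed the test. Elongation factor 3 (CCM_05664) and RRN3 had -0.88 and -0.89 and kept their calls.

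Some members sit side by side in the genome. Of 165 members in the reference annotation, 30 were direct neighbours of another member, forming 15 pairs. In 10 of these the protein numbers differ, and 7 of the 10 are divergent, none convergent, 1 on the same strand and 2 without a stated strand. Over all 5147 neighbouring pairs with known strands, 30.3% are divergent. The closest divergent pair was S5 and S25 (CCM_00238 and CCM_00239, scaffold NW_006271969.1, 908673 to 910375), which are 68 bp apart, with mean levels of 928 and 638 FPKM and log2 differences of 0.26 and 0.09. Pairs of this kind did not always move alike. S0 lies 354 bp from an S15 gene (CCM_08523) whose log2 difference was 0.22, beside -1.10 for S0, and S9 and L21 (412 bp apart) had -0.07 and -0.11.

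The deposited variants place the strain beside the reference genome. Members held 658 exonic variant sites in 137 of 165 genes, 5.02 per coding kb against 5.53 over all reference genes, and 23.4% of sites that kept the frame changed an amino acid, against 27.3%. The alternative base was the genotype in all 6 libraries at 529 of the 658 sites. Of 6 frameshifts, 2 were carried by every read in all 6 libraries. In L27 (CCM_00267) a deletion at position 976934 of scaffold NW_006271969.1 had 16 to 32 alternative reads a library and no reference read. In L30 (CCM_04673) an insertion at 3375679 of scaffold NW_006271971.1 had 107 to 715 alternative reads and no reference read, while the gene had 71.8 to 105 FPKM and 9515 to 14962 junction reads a library. A frameshift insertion in the mitochondrial large subunit gene CCM_00766 was mixed in every library, with 17.2%, 19.2%, 29.4%, 22.3%, 22.9% and 24.8% alternative reads in passages 1 to 6.

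In a few members the mixture of both bases differed between libraries. At the most covered mixed site of L3 (CCM_08860, scaffold NW_006271975.1, position 1997831), an exonic site of a core protein of the peptidyl transferase region, the alternative base had 98.8%, 48.3%, 77.8%, 20.6%, 37.5% and 13.1% of reads in passages 1 to 6. Alternative reads ran from 258 to 961 and reference reads from 12 to 1774 a library, and the 95% Wilson intervals of the 6 libraries did not overlap. The adjoining L3 gene (CCM_08859) had 100%, 65.8%, 85.9%, 21.6%, 44.0% and 19.3% at its own site. Both genes had the order passage 1, 3, 2, 5, 4, 6 from the highest to the lowest share, although the intervals of passages 4 and 6 overlap in CCM_08859.

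On another scaffold, the Tim44-related gene CCM_06528 had 99.4%, 82.1%, 92.9%, 46.6%, 65.6% and 40.6%, and S35 (CCM_06569) had 100%, 85.9%, 96.8%, 54.3%, 76.0% and 53.6%. At these sites the order of the libraries was the same as in L3, with overlapping intervals of passages 4 and 6 in both genes. In an L19 gene (CCM_09035) the alternative base was not seen in passages 1 and 3, where 88 and 188 reads allow up to 4.18% and 2.00% by the Wilson interval, and had 9.42%, 12.5%, 13.6% and 20.5% in passages 2, 4, 5 and 6. The shares depend on which base is the alternative one, so other mixed sites of CCM_06528, CCM_06569, CCM_08859 and CCM_09035 run the other way. In S35 the site shown is 1 of 6, and at the other 5 the alternative base was at 0% in passage 1 and at 27.7% to 70.8% in passage 6. Counted by the base that prevailed in passage 1, its share was lowest in passage 6 at 26 of the 28 mixed sites of the 5 genes, ties included. That its share was highest in passage 1 at all 28 follows nearly from this choice of base. Sites within 1 gene are also not independent of each other. These 5 genes were chosen after their values were seen, and the difference between libraries has no replicate. The intervals cover counting error only.

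**Figure D5:**
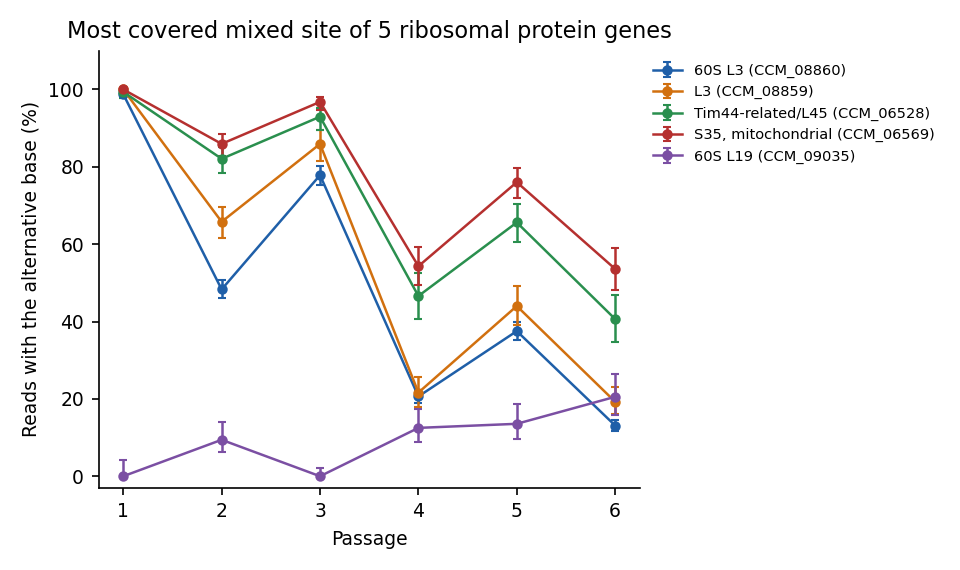
Reads with the alternative base (%) at the most covered mixed site of 5 ribosomal protein genes in passages 1 to 6, with 95% Wilson intervals that cover counting error only. In L3 (CCM_08860) the share was 98.8% in passage 1 and 13.1% in passage 6, and in L19 it was 0% in passage 1 and 20.5% in passage 6.

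The same sites account for most of the RNA editing events that the authors list in members. Of 11304 listed events, 108 lay in members: none in passage 1, then 21, 8, 27, 26 and 26 in the later ones. All genes together had 208, 2511, 1401, 2481, 2473 and 2230 events in passages 1 to 6, so that few were listed in passage 1 for genes of any kind. The mixed sites of the 5 genes above hold 31 events in CCM_08859, 14 in CCM_08860, 22 in CCM_06528, 23 in CCM_06569 and 16 in CCM_09035.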

How the data were processed

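Poly(A)-selected RNA of 6 mycelium libraries was measured, 1 for each passage. The authors deposited expected counts per gene, which were not normalised and were rounded to whole numbers here, and FPKM, scaled to length and library size per the file headers. Reads of overlapping or antisense genes and of near-identical copies cannot be told apart where strand use is not given. The authors deposited counts of reads per splice junction, of which the class of annotated junctions was summed per gene. The authors' deposited tables give a log2 ratio, a p-value and an FDR for each later passage against passage 1. They also deposited variants with a quality score, genotype codes and read numbers, and editing events with a frequency as a fraction of reads. Other deposited values, such as lengths of gene models, were used as given. The submitters' processing notes name Bowtie, TopHat2, Cufflinks, FastQC and edgeR, with versions not given in the sources used here. Left unused were 56 other columns that hold values per sample. Coding length was taken from the ratio of counts to FPKM, and 95.0% of 7010 genes with over 500 counts gave a multiple of 3. Gene models of the files share a start or end with RefSeq genes of assembly CmilitarisCM01_v01 in 3695 of 3695 extended models, so positions are given on that assembly.

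The main test was edgeR 4.0.16 (R 4.3.3), quasi-likelihood, with TMM scaling and the default expression filter, which kept 8758 genes, two-sided, with Benjamini-Hochberg adjustment over all of them at 0.05. Passages 2 to 6 (5 libraries) were set against passage 1 (1 library), and a numeric passage term was fitted in a separate model. The length trend was removed with a lowess curve (span 0.3) of each library's log2 CPM deviation on log2 coding length, fitted on genes other than members. DESeq2 1.42.0 and limma 3.58.1 on log2(FPKM + 1), or with a pseudocount of 0.1, were alternatives. Ratios of single libraries used log2 CPM with a prior count of 1. Tables were made with pandas 2.3.3, scipy 1.17.1 and statsmodels 0.14.6 in Python 3.11.15. In simulated counts for 8758 genes, the comparison with passage 1 recovered 10 of 100 genes changed by 1 on the log2 scale and 73 of 100 changed by 2, with 3 false calls. The slope test recovered 86 of 100 genes with a slope of 0.5, with 14 false calls. The slopes were simulated with the spread estimated in the comparison with passage 1. The highest slope of a member was 0.34, so this simulation does not show how often slopes of the members' size would be found.

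The members, classes and lists were chosen with earlier results of these data known. Named genes were, for each class of names, the 3 called with the most positive and the 3 with the most negative log2 difference and the 2 with the highest mean FPKM. To these were added the stalk proteins, fusions with ubiquitin, up to 5 a direction called with the length trend removed, up to 3 a direction with a called slope, and up to 3 for each other kind of file by the highest count. Genes named outside this rule were chosen after their values were seen. A list of ribosomal protein modifiers left out of the family matched 0 genes.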

Additional observations from a re-analysis of the deposited data

Results flagged for a closer look

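Among passages 2 to 6, 1 library stood away from the other 4 in log2 CPM for 5 of 50 values examined, by a gap of over 0.71 of the range of the 5 libraries. Chance alone gives about 1 in 20 such groups. For L12 (CCM_03950) the gap was 0.727 of the range, with passage 2 the lowest at 547 FPKM. For L36 (CCM_05414) it was 0.752, with passage 4 the lowest at 81.2 FPKM against 127 to 140.3 in the other 4. For L40 (CCM_03982), at 6 to 14 counts a library, it was 0.818, with passage 5 the highest. For L27 of the 50S subunit (CCM_02524) it was 0.769 and for Rsm25 (CCM_09111) 0.730.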

How the results depend on the processing

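No paired analysis was possible because each passage has 1 library. The lone passage 1 library is assumed to vary like the other 5 in every fit. Of the calls against passage 1 (57 members higher, 7 lower), limma on log2(FPKM + 1) gave 89 and 1, limma with a pseudocount of 0.1 gave 90 and 1, and both forms of length removal gave 11 and 20, 31 in all. Junction reads with the length trend removed, chosen after seeing the data, gave 8 and 23, 31 in all. FPKM lacks the TMM scaling, which moves the median of all genes by 0.19 (log2). Leaving out 1 later library gave 30 to 59 higher, 2 to 9 lower and 32 to 65 in all. Shares by summed FPKM were 5.02%, 5.99%, 5.97%, 6.38%, 5.91% and 6.05%, and without the mitochondrial label count shares were 2.35%, 2.99%, 2.96%, 3.14%, 2.96% and 3.06%. The median for the mitochondrial label (0.58) was 0.090 with length removed, 0.79 in FPKM, 0.71 in junction reads, 0.63 with organelle-type names added (chosen after seeing the data) and 0.56 to 0.58 with 1 library left out. That without the label (0.40) was 0.050, 0.61, 0.34, 0.32 and 0.40 to 0.42. The difference from genes of like length (0.02) was -0.10 at or above the members' median level and -0.072 in junction reads, both chosen after seeing the data. At least 2-fold higher in FPKM were 30, 46, 38, 33 and 38 members and lower 0, 0, 0, 0 and 1 in passages 2 to 6. With length removed these were 2, 5, 8, 6 and 2 higher and 3, 11, 8, 10 and 9 lower. No slope was called under any alternative. Over single genes, 482 alternatives left the result as it was, whether called or not called, so that 482 is not a number of kept calls. A call was gained in 24 and lost in 94. In 33 the sign changed, none of these with an adjusted p under 0.05. Signs changed in limma for CCM_02284 (0.088 with either pseudocount), CCM_03276 (0.19 and 0.19), CCM_06393 (0.11 and 0.11) and CCM_08859 (0.11 and 0.11), and with 1 library left out for CCM_03276 (-0.16 to 0.011, the latter without passage 3). With length removed on other genes and on all genes they changed for CCM_02671 (-0.41 and -0.40), CCM_02827 (-0.37 and -0.36), CCM_06982 (-0.43 and -0.43) and TCONS_00002157 (-0.10 and -0.10). In junction reads without and with length removal they changed for CCM_02671 (-0.049 and -0.45), CCM_02827 (-0.23 and -0.84), CCM_06393 (0.38 and 0.25), CCM_06528 (-0.042 and -0.20), CCM_06569 (-0.068 and -0.087) and CCM_08859 (6.54 and 6.51, on 0 to 24 reads a library). They changed with length removal alone for CCM_02668 (-0.018), CCM_05855 (-0.40) and CCM_06982 (-0.41), and without it alone for CCM_08620 (0.039). The causes were not tested. Few counts limit L40, L38e and the shortest members, and for L39 the counts are few beside its junction reads.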

Other observations

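In S18 of the 37S subunit (CCM_00253), the most covered mixed site (scaffold NW_006271969.1, position 936891) had the alternative base in 0 of 27 reads in passage 3, where the upper 95% Wilson limit is 12.5%, and in 94.1% to 100% of reads in the other 5 libraries. In L14 of the 50S subunit (CCM_08112), a frameshift and a stop were listed at neighbouring positions in passages 5 and 6, with 2 to 10 alternative reads and no reference read, and with 0 to 2 reads a library in passages 1 to 4. Gene models were extended by the authors for 75 members, 45.5% of those in the reference annotation, against 38.3% of all reference genes. The median extension was 131 bp at the 5' end and 172 bp at the 3' end.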
